A study of Homo sapiens with 9 samples.

Results

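The effect of siRNA s46 on the transcriptome of ALL-SIL was read from 6 of the 9 libraries of the series, 3 from cells given s46 and 3 from cells given a scrambled siRNA, both collected at 24 h. ALL-SIL is a human T-cell acute lymphoblastic leukaemia (T-ALL) line, and s46 is 1 of a pair of siRNAs against TLX1 in the study. All cells were electroporated, so the scrambled libraries are controls for delivery and for the presence of an siRNA. The labels give 400 nM for the scrambled siRNA and no dose for s46. The 3 libraries of the other siRNA, s47, entered the fit to share its estimate of the spread and are used below only to show where s46 stands apart. Every group came from the 1 line, and no label says whether replicates were separate cultures. The p-values therefore cover only the spread seen among these libraries, part or all of which may be technical.

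TLX1 is a homeobox transcription factor that is silent in normal thymocytes and is switched on in a subset of T-ALL, where leukaemic cells are held at the cortical stage of thymic development. In that stage T-cell receptor genes are rearranged by RAG proteins and terminal transferase. An siRNA guides an Argonaute protein to a matching transcript, which is cleaved. The seed near the 5′ end of an siRNA strand can also pair with the 3′ untranslated region (UTR) of other transcripts and lower them, and a scrambled siRNA has a seed of its own. Cells without siRNA were not analysed here, so a transcript that s46 raises and one that the scrambled siRNA lowers cannot be told apart.

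Sense gene reads numbered 21134650 in scrambled replicate 1 and 26130506 to 33393740 in the other 5 libraries. Scrambled replicate 1 stood apart from the other 5 in the make-up of its reads. Multimapping reads were 14.45% of it against 6.356% to 7.113%, and reads in genes 39.92% against 52.65% to 58.28%. Mitochondrially encoded genes held 1.081% of its gene reads against 0.4524% to 0.4971%. Across 16072 genes, its log2 level differed from the mean of the other scrambled libraries by a median of 0.38. The same measure within each group was 0.30 for scrambled replicate 2, 0.19 for scrambled replicate 3 and 0.16 to 0.20 for the s46 libraries. For scrambled replicates 2 and 3 that mean includes scrambled replicate 1. Pearson's r of log2 CPM across genes was 0.989 between scrambled replicates 2 and 3. With scrambled replicate 1 it was 0.967 for replicate 2 and 0.975 for replicate 3. Of 10 T-lineage markers, 9 were expressed in each of the 6 libraries, and PTCRA, the alpha chain of the pre-T-cell receptor, was near 0, with 0 reads in s46 replicate 1. Markers of other lineages were mixed: the cytotoxic granule gene NKG7 was at 104.8 to 180.3 CPM (reads of a gene scaled to the size of its library) and the B-cell receptor gene CD79A at 4.88 to 9.14 CPM. PAX5, a B-cell factor, was at 0.104 to 1.34 CPM, while the B-cell marker MS4A1, the erythroid HBB and the platelet gene PF4 had 0 reads in the 6 libraries.

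TLX1 (ENSG00000107807.12, chr10:101130505-101137789, plus strand, GRCh38) was lower with s46. The scrambled libraries held 198.1, 188.2 and 171.3 CPM and the s46 libraries 63.7, 87.3 and 78.7 CPM, in order of replicate number. Every s46 library lay below every scrambled library. The means were 185.9 ± 13.5 and 76.6 ± 11.9 CPM (SD, n = 3 each), a 2.43-fold reduction with a log2 fold change of -1.28 ± 0.14 (SE; edgeR quasi-likelihood F test, Benjamini-Hochberg adjusted p 0.00406). Scrambled replicate 1 held the highest TLX1 level of its group, and the log2 fold change was -1.23 ± 0.13 without it (edgeR adjusted p 0.00126) and -1.34 with it as the only control.

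With s46, 28 of 16072 genes passed an adjusted p of 0.05 (0.174%; edgeR), while the unadjusted p was under 0.05 for 1905 (11.9%). Among the 28, 24 were higher (0.149%) and 4 were lower (0.0249%). In all 28 the 3 s46 libraries lay apart from the 3 scrambled libraries, as they did for 14.7% of all genes tested (7.45% higher with s46 and 7.22% lower). The count rested on the libraries and on the fit. It was 74 with the replicate number as a block. Leaving out a control gave 48 (scrambled replicate 1), 225 (replicate 2) or 5 (replicate 3) genes. Leaving out an s46 library, in order of number, gave 4, 4 or 5, and leaving out an s47 library gave 15, 17 or 6. TLX1, IL7R, TSHR and TC2N were called in each of the 9 fits that left out 1 library.

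The other genes that fell were those of receptors. CCR4 (chr3:32951574-32956349), a chemokine receptor of skin-homing and type 2 helper T cells, was at 153.8, 172.0 and 190.3 CPM with scrambled siRNA and at 58.9, 63.2 and 86.2 CPM with s46. The mean was thus 2.48-fold lower with s46, close in size to the change of TLX1, at a log2 fold change of -1.31 ± 0.16 (SE; edgeR adjusted p 0.00513). RXRA (chr9:134317098-134440585), the retinoid X receptor alpha and partner of many nuclear receptors, was at 24.2, 25.5 and 29.2 CPM with scrambled siRNA and at 8.47, 12.4 and 9.98 CPM with s46. The RXRA log2 fold change was -1.35 ± 0.20 (SE; edgeR adjusted p 0.0214).

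IL9R (chrX:155997581-156010817), which binds interleukin 9 together with the common gamma chain, was at 56.7, 43 and 41.5 CPM with scrambled siRNA and at 22.8, 28.2 and 23.1 CPM with s46. The groups did not overlap, and scrambled replicate 1 was the highest of all. The log2 fold change was -0.93 ± 0.16 (SE; edgeR adjusted p 0.0386), and it was -0.77 without scrambled replicate 1 (edgeR adjusted p 0.0299). In contrast, CCR4 and RXRA were lowest in scrambled replicate 1 among the controls, and their log2 fold changes were further from 0 without it, at -1.38 and -1.41.

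Receptors were also among the genes that rose. IL7R (chr5:35852695-35879603) encodes the alpha chain of the interleukin 7 receptor, on which early and mature T cells depend. It was at 9.14, 8.8 and 7.23 CPM with scrambled siRNA and at 23.6, 21.3 and 26.2 CPM with s46, a 2.82-fold rise (log2 fold change 1.5 ± 0.17 SE; edgeR adjusted p 0.00406). TSHR (chr14:80954989-81146302), the thyrotropin receptor, was at 12.1, 8.77 and 8.81 CPM with scrambled siRNA and at 37.4, 29.3 and 25.6 CPM with s46. This is a log2 fold change of 1.64 ± 0.19 (SE; edgeR adjusted p 0.00406). For both genes the lowest s46 library, at 21.3 and 25.6 CPM, lay well above the highest control, at 9.14 and 12.1 CPM.

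The largest rises started from low levels. TC2N (chr14:91779751-91867536), a protein with tandem C2 domains, was at 0.717, 0.539 and 0.551 CPM with scrambled siRNA and at 2.67, 3.37 and 3.5 CPM with s46. That is a 5.29-fold rise (log2 fold change 2.40 ± 0.28 SE; edgeR adjusted p 0.00406). DAB2IP (chr9:121567057-121785530), a GTPase-activating protein for Ras, was at 1.97, 0.573 and 1.58 CPM with scrambled siRNA and at 5.07, 6.22 and 6.24 CPM with s46. Its log2 fold change was 2.11 ± 0.34 (SE; edgeR adjusted p 0.0359). The DAB2IP controls were themselves spread, with scrambled replicate 2 well below the others and scrambled replicate 1 highest. The log2 fold change was 1.73 without scrambled replicate 2. It was 2.45 without scrambled replicate 1 and 1.60 with scrambled replicate 1 as the only control.

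**Figure D1:**
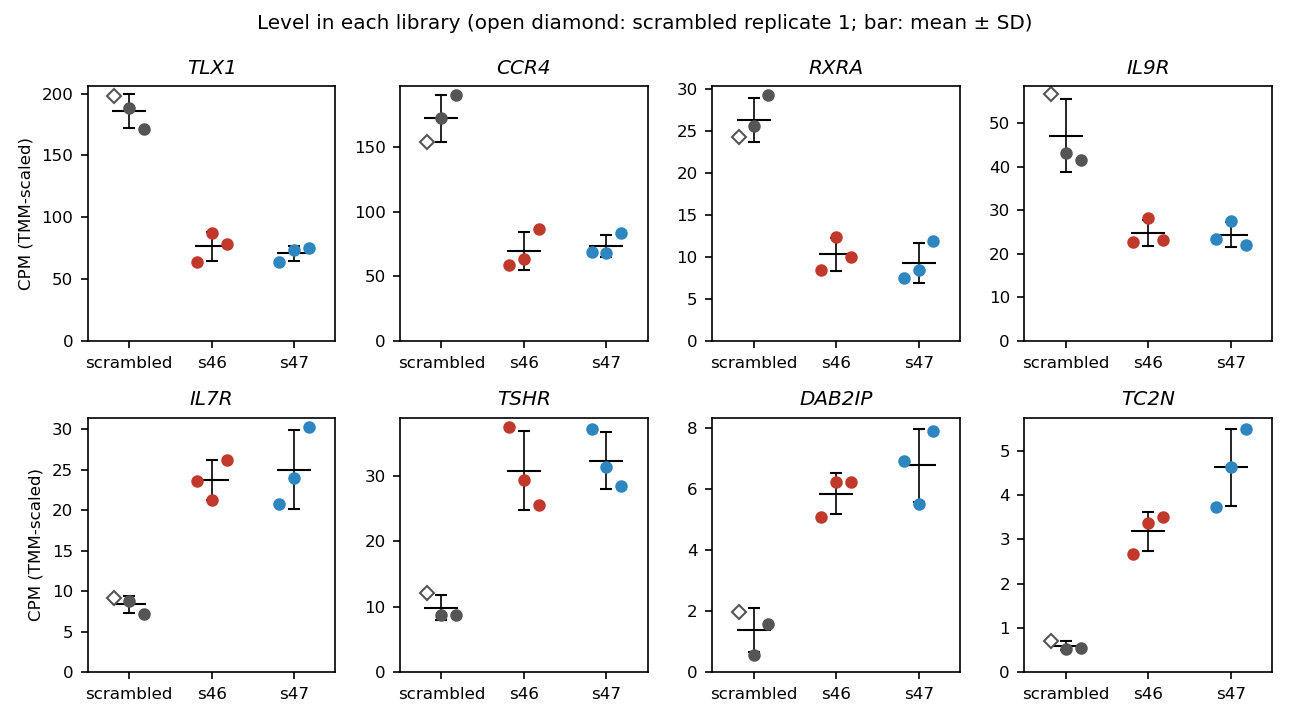
Level of 8 called genes in each library, in TMM-scaled CPM (y axis, from 0), for scrambled siRNA, s46 and s47; points are libraries, the open diamond is scrambled replicate 1, and bars are the mean ± SD (n = 3). No s46 point overlaps a scrambled point in any panel. The open diamond lies on the scrambled side each time, in genes that were called with it among the controls. It is highest of its group for TLX1, IL9R, IL7R, TSHR, DAB2IP and TC2N and lowest for CCR4 and RXRA.

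The remaining rises were smaller and covered several cell functions. Among genes of RNA handling, AGO4, 1 of the human Argonaute proteins, was at 45.1, 44.6 and 48.7 CPM with scrambled siRNA and at 78.1, 71.8 and 75.1 CPM with s46 (log2 fold change 0.70 ± 0.11 SE; edgeR adjusted p 0.0225). LSM14A, a component of cytoplasmic processing bodies, was at 86.8, 130.0 and 114.2 CPM and at 215.6, 214.2 and 206.0 CPM (0.94 ± 0.14 SE; edgeR adjusted p 0.0222). ALYREF, an mRNA export adaptor, rose by a log2 fold change of 0.65, the smallest of the named rises. In AGO4 the controls lay close together, whereas in LSM14A scrambled replicate 1 was the lowest.

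Among kinases and signalling genes, HIPK3, a homeodomain-interacting kinase, rose by 0.86 ± 0.12 on the log2 scale, and NEK7, a mitotic kinase also needed for the NLRP3 inflammasome, by 0.85 ± 0.13. GNB1, a G-protein beta subunit, rose by 0.74 ± 0.13 and ICMT, which methylates prenylated proteins such as Ras, by 0.80 ± 0.11. Membrane proteins were NDC1 of the nuclear pore (0.92 ± 0.13), SCAMP1 of secretory vesicles (0.98 ± 0.15), the phosphate exporter XPR1 (0.70 ± 0.12), MFSD14A (0.78 ± 0.14) and TMEM170B (0.84 ± 0.14). Metabolic enzymes were IDH3A of the citric acid cycle (0.70 ± 0.12) and NANP of sialic acid synthesis (0.70 ± 0.12). The edgeR adjusted p of these genes ran from 0.0214 to 0.0492, the latter for GNB1.

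TOP1MT, the topoisomerase of mitochondrial DNA, was at 8.29, 12.7 and 11.1 CPM with scrambled siRNA and at 19.2, 33 and 25.5 CPM with s46 (log2 fold change 1.27 ± 0.22 SE). MZB1, a chaperone of the endoplasmic reticulum, rose by 0.72 ± 0.12. The long non-coding RNA AC011893.1 (chr2:135820191-135823087), on the strand opposite LCT, was at 29.2, 60.5 and 37.2 CPM with scrambled siRNA and at 103.3, 122.7 and 110.8 CPM with s46 (1.41 ± 0.21 SE; edgeR adjusted p 0.0222). The T-cell receptor segment TRBV7-2 was at 1.48, 1.79 and 1.98 CPM and at 3.66, 4.24 and 5.28 CPM (1.32 ± 0.23 SE; edgeR adjusted p 0.0492). That value is uncertain, since similar segments can share reads.

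Many of the genes that rose had the word GCAGTAC in the 3′ UTR. Of the 22 higher genes for which GENCODE gives a 3′ UTR, 17 held it (77.3%), as did 0 of the 4 lower genes and 477 of 11018 genes that were not called (4.33%). The word was found in these same data by an earlier analysis, so its share among the calls is a description and no test is given. Sites in 7 of the carriers, 1 site for each, are printed as examples, 5′ to 3′ on the transcript strand, with 10 bases on each side, to show what the matching transcripts share; capitals mark the word (GENCODE 29, GRCh38).
TC2N: atttttaaaaGCAGTACtcctagggaa
SCAMP1: tatataatatGCAGTACattatccaaa
LSM14A: ttaaactaaaGCAGTACttcagtggga
NDC1: gccccttcaaGCAGTACatgccaaatt
HIPK3: tttttacattGCAGTACttgttttgct
NEK7: gaataaccttGCAGTACtatatttcaa
AGO4: taataagtatGCAGTACactgtaatgg
The sites lie at chr14:91780472-91780498 (minus strand) for TC2N, chr5:78476413-78476439 (plus) for SCAMP1, chr19:34227646-34227672 (plus) for LSM14A, chr1:53766608-53766634 (minus) for NDC1, chr11:33354720-33354746 (plus) for HIPK3, chr1:198320338-198320364 (plus) for NEK7 and chr1:35857690-35857716 (plus) for AGO4. Outside the capitals the flanks differ from gene to gene.

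The word was searched on the transcript strand only, in 1 transcript per gene, and whether a gene counts as a carrier depends on the transcript taken. TMEM170B held it 4 times in a UTR of 7963 bases, and AGO4, HIPK3, LSM14A and XPR1 held it 2 times each. GNB1, ICMT, IDH3A, MFSD14A, NANP and TOP1MT also held it. ALYREF, DAB2IP, IL7R, MZB1 and TSHR did not. The higher genes had long 3′ UTRs, with a median of 2757 bases against 1058 over all tested genes, and a longer UTR holds any word more often. Among UTRs of 2000 to 3999 bases, 10 of the 11 higher genes held it, against 7.74% of the 2068 genes not called. Among UTRs of 1000 to 1999 bases it was in 3 of 5 higher genes and in 3.33% of the 2406 others. The overlapping word CAGTACA was in 8 of the 22 (36.4%) and in 7.72% of the genes not called. Words without this overlap were also searched. AATCACT was in 7 of the 22 (31.8%) and in 13.6% of the genes not called. AACCGCA was in 0 of the 22 and in 1.5% of the genes not called.

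The carriers were also described as a whole, called or not. The word came from these same data and the called carriers are included. The values below are therefore also a description and not a test. Over all 494 tested carriers the median log2 fold change was 0.18, against 0.01 for the 10550 other genes with a 3′ UTR, and 72.7% of carriers against 51.4% of the others were above 0. Relative to each gene's mean over the 9 libraries, the median carrier was at -0.18, -0.09 and -0.11 on the log2 scale in scrambled replicates 1, 2 and 3, and at 0.09, 0.06 and 0.06 in s46 replicates 1, 2 and 3. The scrambled libraries were thus low and the s46 libraries high, without overlap, and scrambled replicate 1 was the lowest. The carriers' median log2 fold change was 0.15 without scrambled replicate 1 and 0.30 with it as the only control. Between s46 and s47 the carriers differed by a median of 0.01. Carriers were not matched to the other genes for UTR length or GC content. The fifth of tested genes lowest in transcript GC had a median of 0.12. That median was 0.06 without scrambled replicate 1 and 0.34 with it as the only control. Carriers of AATCACT had a median of 0.07 and those of AACCGCA -0.06. The parts of GC content, UTR length and the scrambled siRNA's own sequence in this pattern were not tested.

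**Figure D2:**
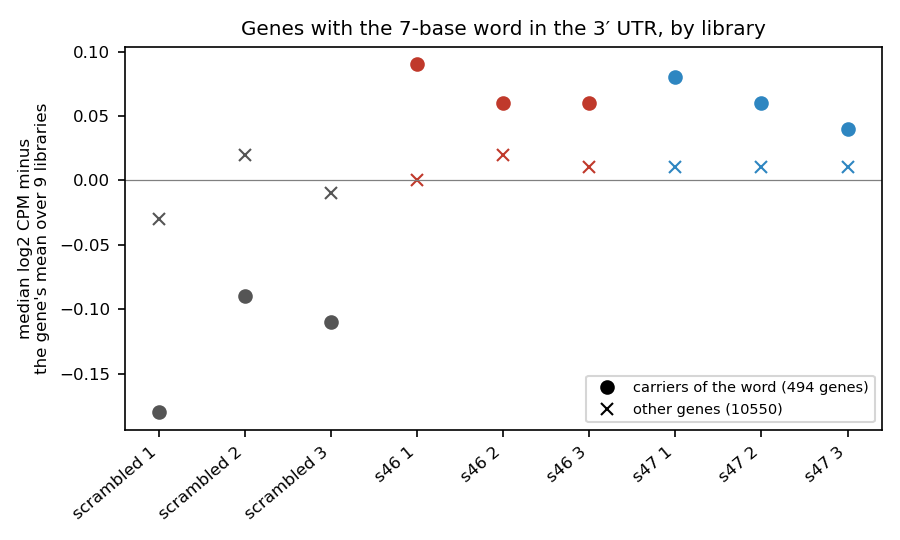
Median over genes of the log2 CPM minus each gene's mean over the 9 libraries (y axis), by library (x axis), for the 494 tested genes with GCAGTAC in the 3′ UTR (filled circles) and the 10550 other genes with a 3′ UTR (crosses). Carriers lie at -0.18 to -0.09 in the scrambled libraries and at 0.04 to 0.09 in the libraries of both TLX1 siRNAs.

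The calls were next examined for how far they rested on scrambled replicate 1. Without that library 48 of 16365 genes passed (0.293%; edgeR), 40 higher (0.244%) and 8 lower (0.0489%). They included 27 of the 28 genes called with all controls. The 1 lost was TRBV7-2 (log2 fold change 1.22 ± 0.25 SE; edgeR adjusted p 0.0593). In all 28 genes, scrambled replicate 1 lay apart from the 3 s46 libraries on the same side as the other controls. These genes were selected with that library among the controls, so its side was in part set by the selection. The log2 fold change was further from 0 without it in 10 of them and nearer to 0 in 18, by a ratio of 0.83 (IL9R) to 1.17 (GNB1). The median SE of the 28 was 0.14 with it and 0.13 without.

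Scrambled replicate 1 was the lowest control in 14 of the 24 higher genes and the highest in 7; over all tested genes it was the lowest in 41.1% and the highest in 41.8%. In LSM14A, for example, the log2 fold change was 0.94 with all controls, 0.80 without scrambled replicate 1 and 1.32 with it as the only control. In SCAMP1 these values were 0.98, 0.83 and 1.38, and in AC011893.1 they were 1.41, 1.2 and 1.98. In TSHR they were 1.64, 1.81 and 1.39 and in GNB1 0.74, 0.86 and 0.56. The carriers of GCAGTAC among them were therefore not all at their lowest in that library, since it held the highest GNB1 level of the controls, 297.0 against 245.4 and 224.4 CPM.

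**Figure D3:**
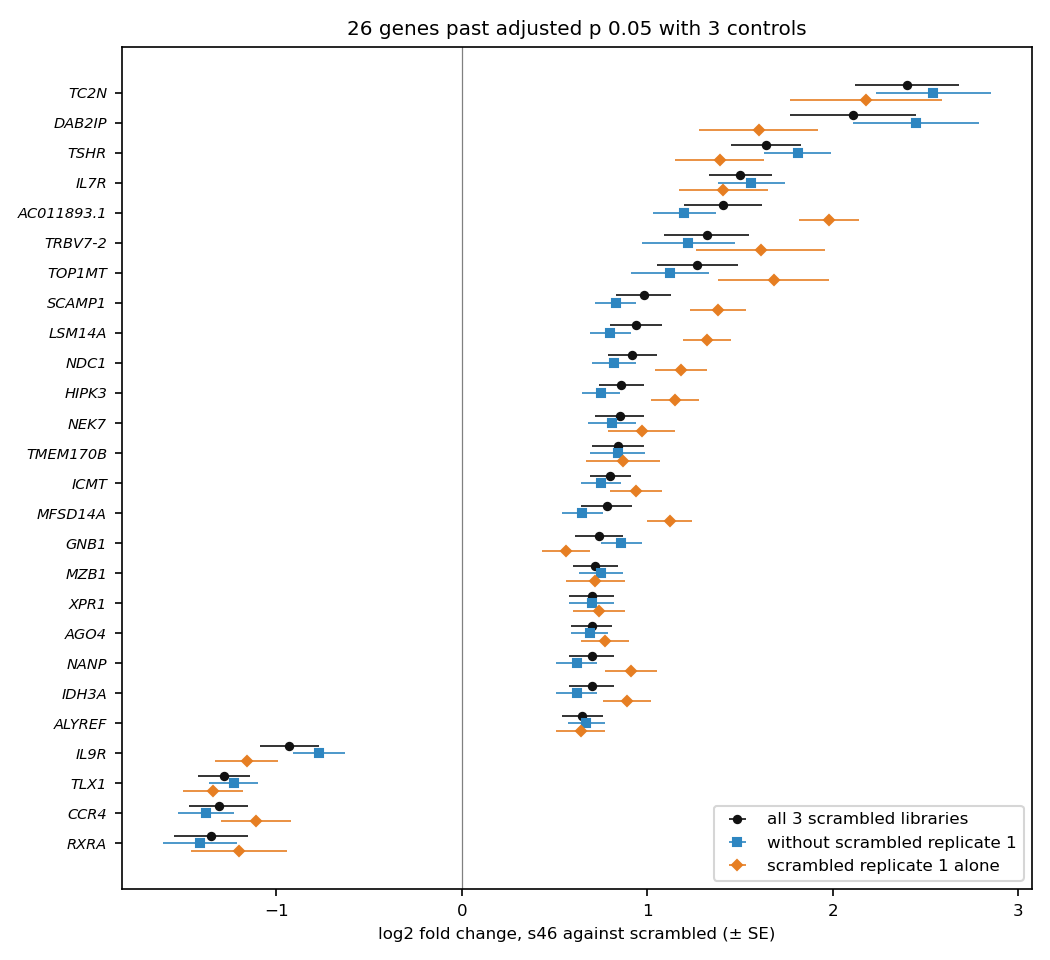
Log2 fold change of s46 against scrambled siRNA ± SE (x axis) of 26 genes called with all 3 controls, computed with all controls (circles), without scrambled replicate 1 (squares) and with scrambled replicate 1 as the only control (diamonds). Each gene keeps its side of 0 in all 3 versions, but all were selected with scrambled replicate 1 among the controls. IL9R moves from -0.93 to -0.77 and GNB1 from 0.74 to 0.86 when scrambled replicate 1 is left out.

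Leaving scrambled replicate 1 out brought in 21 genes, 17 higher and 4 lower. CSGALNACT1, an enzyme of chondroitin sulfate synthesis, was at 25.3, 12.8 and 16.6 CPM with scrambled siRNA and at 48.3, 33.6 and 33.3 CPM with s46. Its log2 fold change was 1.08 ± 0.22 (SE; edgeR adjusted p 0.0862) with all controls and 1.39 ± 0.17 (edgeR adjusted p 0.00371) without scrambled replicate 1, which was its highest control. ADGRG1, an adhesion G-protein-coupled receptor, was at 17.7, 10.3 and 10.3 CPM and at 19.4, 22.4 and 21 CPM, with log2 fold changes of 0.72 and 1.02 in the same order. TLN1, the integrin-binding protein talin 1, was at 324.3, 183.2 and 255.5 CPM and at 358.8, 428.7 and 379.5 CPM (0.61 and 0.83). In these 3 genes scrambled replicate 1 lay nearest to the s46 libraries.

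The other named entrants moved less or became less spread. ARPP21, a gene of cortical thymocytes, went from 0.81 ± 0.15 (SE; edgeR adjusted p 0.058) to 0.90 ± 0.15 (0.0186), LBH from 0.78 to 0.79 and LRRC28 from 0.62 to 0.75. PLEC, which links the cytoskeleton to junctions, was at 171.9, 85.3 and 86.5 CPM with scrambled siRNA and at 37.7, 52.6 and 38 CPM with s46. Its log2 fold change was nearer to 0 without scrambled replicate 1, at -1.0 against -1.42, but with an SE of 0.16 against 0.26. MAP3K8, a kinase of the ERK pathway, went from -0.69 to -0.78 and TMC6 from -0.78 to -0.59. Of the 17 higher genes that entered, 3 (17.6%) had GCAGTAC in the 3′ UTR, namely TLN1, LBH and G3BP2. The share was 4.33% among genes not called with all controls, without adjustment for UTR length. With the block and all controls, CSGALNACT1, ARPP21, LBH and LRRC28 also passed (edgeR adjusted p 0.0163 to 0.0387).

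Set against scrambled replicate 1 alone, s46 gave 4193 calls in 17480 genes (24%; edgeR). The lone control was assumed there to vary like the s46 and s47 libraries. The calls took in all 28 genes, and 40 of the 48 found without scrambled replicate 1.

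Among abundant genes (mean log2 CPM of at least 5), those that moved most when scrambled replicate 1 was left out had a level there far from the other libraries. Genes of lower abundance, some of which moved more, are not ranked. MT-CYB, a mitochondrially encoded subunit of respiratory complex III, was at 1192.6, 149.6 and 162.5 CPM with scrambled siRNA and at 121.3, 141.3 and 122.2 CPM with s46. Its log2 fold change was -1.97 ± 0.71 (SE; edgeR adjusted p 0.407) with all controls and -0.28 ± 0.13 (0.702) without scrambled replicate 1. SRRM2, a splicing factor of nuclear speckles, was at 1168.3, 168.1 and 245.1 CPM and at 207.0, 173.8 and 141.3 CPM (-1.60 and -0.25). POLR2A, the largest subunit of RNA polymerase II, was at 190.4, 26 and 48.4 CPM and at 26.8, 33.1 and 24.2 CPM (-1.65 and -0.41). In these genes the other 2 controls lay among or near the s46 libraries.

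In the other direction, and under the same limit on abundance, LYAR, a nucleolar protein, was at 23.4, 73 and 51.4 CPM with scrambled siRNA and at 78.2, 86.8 and 77.1 CPM with s46 (log2 fold change 0.71 with all controls and 0.38 without scrambled replicate 1). SNRPF, a core spliceosome protein, was at 34.7, 98.8 and 70.8 CPM and at 99.3, 96.9 and 98.1 CPM (0.52 and 0.21). The small Cajal body RNA SCARNA7 was at 24.2, 88.8 and 87.7 CPM and at 71.2, 69.2 and 81.7 CPM, and its log2 fold change went from 0.14 to -0.25. HMMR, a mitotic spindle protein, went from -0.03 to -0.33. None of these 4 passed the test with or without scrambled replicate 1.

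The log2 fold changes varied with base composition. Over 15983 genes, the 3197 with the lowest transcript GC content (24.8% to 40.7%) had a median of 0.12 and the 3197 with the highest (57.2% to 76%) a median of -0.19. Without scrambled replicate 1 the medians were 0.06 and -0.07, and with it as the only control 0.34 and -0.33. Across genes, which share libraries and are not independent, Spearman's rho of GC content with the log2 fold change was -0.32, and -0.20 without scrambled replicate 1. The median transcript GC was 42.5% in the 24 higher genes, 59.8% in the 4 lower genes and 47.7% over all tested genes. The part of GC content in the calls was not tested.

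**Figure D4:**
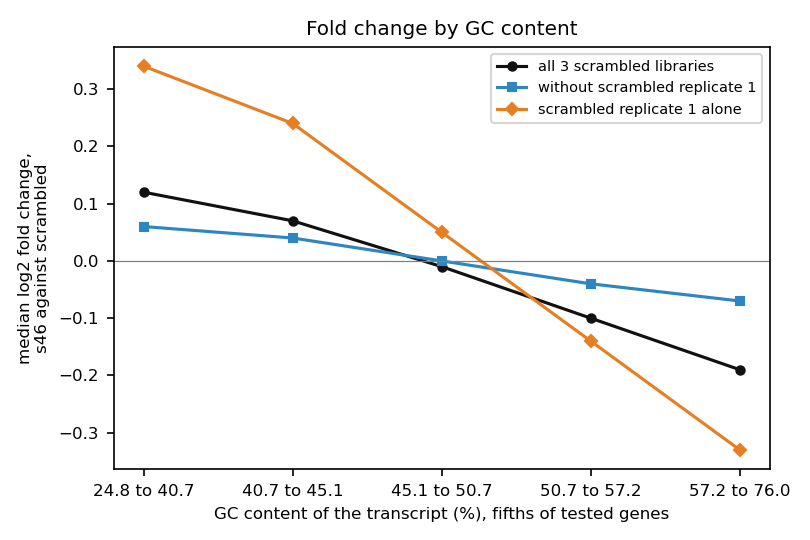
Median log2 fold change of s46 against scrambled siRNA (y axis) in 5 bins of about 3197 tested genes by transcript GC content (x axis, percent), with all controls, without scrambled replicate 1 and with it as the only control. The fall from the lowest to the highest bin, 0.12 to -0.19 with all controls, is 0.06 to -0.07 without scrambled replicate 1 and 0.34 to -0.33 against it alone.

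With the replicate number as a block, which compares s46 and scrambled libraries of the same number, 74 genes passed (0.46%; edgeR), 56 higher (0.348%) and 18 lower (0.112%), among them all 28. No label says that libraries of the same number belong together. They were taken as pairs because their deviations correlated in these same data, so the blocked p-values rest on that choice. The genes described next were chosen after their values were seen. DNTT, the terminal transferase, was at 11.6, 7.82 and 10 CPM with scrambled siRNA and at 29.9, 16.5 and 23.8 CPM with s46. The DNTT log2 fold change was 1.26 ± 0.24 (SE; edgeR adjusted p 0.0664) without the block and 1.23 ± 0.11 (0.00357) with it. RAG2, a subunit of the recombinase, was at 4.62, 8.9 and 14.9 CPM and at 11.6, 15.8 and 31.7 CPM, higher with s46 in each pair although the groups overlapped. The RAG2 log2 fold change was 1.05 ± 0.52 (edgeR adjusted p 0.443) without the block and 1.07 ± 0.13 (0.0163) with it.

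Lower genes also entered with the block. CHDH, choline dehydrogenase, was at 37.7, 25.7 and 20.1 CPM with scrambled siRNA and at 8.81, 8.1 and 3.71 CPM with s46, a log2 fold change of -2.06 ± 0.15 in the blocked fit (SE; edgeR adjusted p 0.00115). IL6R, the interleukin 6 receptor, was at 30.1, 14.1 and 30.9 CPM and at 13.7, 6.95 and 12.8 CPM (-1.14 ± 0.12; edgeR adjusted p 0.00633). In both genes each s46 library lay below its same-numbered control, and replicate 2 of IL6R was low in both groups. MAF, a transcription factor of helper T cells, fell by 0.90 on the log2 scale (edgeR adjusted p 0.0377). Of the 30 added higher genes with a 3′ UTR, 9 (30%) held GCAGTAC, and of the 14 added lower genes 1 did (7.14%). Among genes not called without the block the share was 4.33%. These shares were not adjusted for UTR length.

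Gene lists were described by their counts and medians, beside a median of -0.02 over all genes tested. Of all these log2 fold changes, 7550 were above 0 and 8522 below. The lists were chosen with earlier results of these data known, so the shares called are descriptions and not tests. Cortical thymocyte genes had a median of 0.37 over 18 genes, 14 above 0 and 4 below. Of the 18, 0 were called without the block and 5 were higher with it (edgeR adjusted p 0.00357 to 0.0474), against 0.348% of all genes: DNTT, RAG1, RAG2, ARPP21 and CD1A, an antigen-presenting molecule of cortical thymocytes. CD1A was at 22.7, 20.8 and 36.2 CPM with scrambled siRNA and at 49, 30.9 and 65.6 CPM with s46. Without the block the log2 fold change was 1.26 for DNTT, 1.10 for RAG1 and 1.05 for RAG2. Leaving out scrambled replicate 1 as well gave 1.39 for DNTT, 0.84 for RAG1 and 0.74 for RAG2. CD1E was among the abundant genes that moved most, from 0.53 to 0.20. Its controls were at 32.7, 72.8 and 95.9 CPM, with scrambled replicate 1 the lowest. None of these genes passed without that library and without the block. PTCRA was at -2.15, on 0.224, 0.371 and 0.477 CPM with scrambled siRNA and 0, 0.104 and 0.121 CPM with s46. The list median was 0.27 without scrambled replicate 1, where ARPP21 was the 1 member called without the block, and 0.52 against that library alone. Scrambled replicate 1 was the lowest control in 9 of the 18 genes and the highest in 7.

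Mature T-cell and thymic egress genes had 1 member higher (IL7R) and 2 lower (CCR4 and IL9R) among 22. Over all genes tested, 0.149% were called higher and 0.0249% lower. The list median was -0.13, and -0.17 without scrambled replicate 1. This list too was chosen with earlier results known. A further 2, CXCR3 and ITGB7, were lower only with the block, where 0.112% of all genes tested were called lower. CXCR3, a chemokine receptor of type 1 helper T cells, was at 4.08, 3.71 and 2.68 CPM with scrambled siRNA and at 0.648, 1.6 and 0.935 CPM with s46 (log2 fold change -1.71 ± 0.35 SE; edgeR adjusted p 0.0813, and 0.0387 with the block). ITGB7, the beta 7 chain of the gut-homing integrin, was at 9.86, 5.46 and 8.63 CPM and at 3.85, 2.95 and 3.44 CPM (-1.22 ± 0.24; edgeR adjusted p 0.0776, and 0.0198 with the block). The homing receptor genes CCR7 (-0.20) and ITGA4 (0.49) and the egress receptor gene S1PR1 (0.18) did not pass in either fit. Of the T-cell receptor signalling genes, 0 of 22 were called, beside 0.174% of all genes tested, with a median of -0.12.

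The lists of MYC and ribosome biogenesis genes and of heat-shock chaperones had medians above 0. They had 0 members called, beside 0.174% of all genes tested. The medians of these lists were smaller without scrambled replicate 1. MYC and ribosome biogenesis genes were above 0 in 43 of 48, with a median of 0.23, and 0.14 without scrambled replicate 1. ODC1, the first enzyme of polyamine synthesis, was at 99.4, 152.9 and 134.1 CPM with scrambled siRNA and at 192.9, 217.3 and 221.4 CPM with s46 (0.71 ± 0.15 SE; edgeR adjusted p 0.107). Heat-shock chaperones had a median of 0.30 over 25 genes and 0.13 without that library. Scrambled replicate 1 was the lowest control in 30 of the 48 and in 19 of the 25 genes.

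In the lists of the translation machinery and the mitochondrial genome, most of the difference lay in scrambled replicate 1. Cytosolic ribosomal protein genes were above 0 in 74 of 84, with a median of 0.14, but the median was -0.01 without scrambled replicate 1 and 0.55 against it alone. That library was the lowest control in 78 of the 84. Hosts of small nucleolar RNAs behaved in the same manner, at 0.14 over 18 genes, -0.04 without scrambled replicate 1 and 0.61 against it alone. Mitochondrially encoded genes were below 0 in 20 of 23, with a median of -0.57, and -0.10 without scrambled replicate 1, which was the highest control in 19. Their summed level was 10237.0 CPM there and 4577.2 to 4996.6 CPM in the other 5 libraries.

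**Figure D5:**
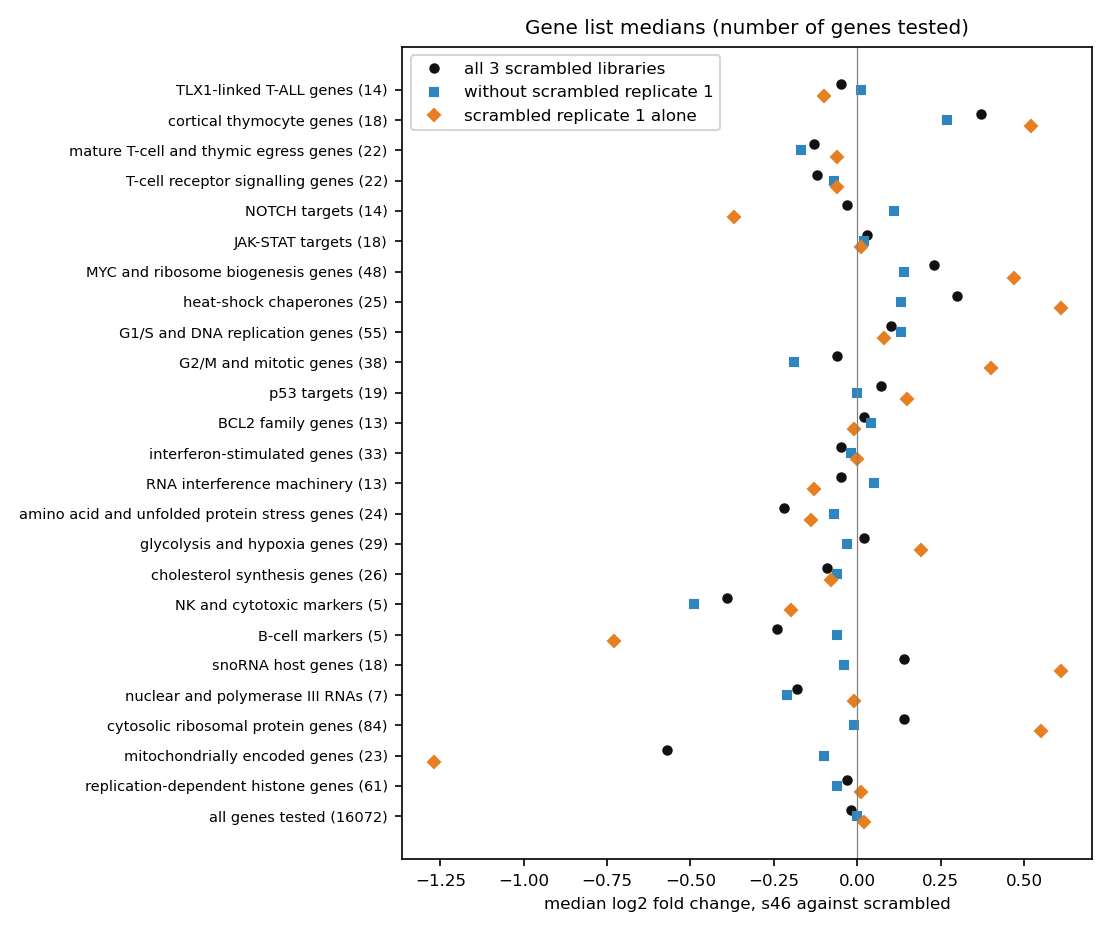
Median log2 fold change of s46 against scrambled siRNA (x axis) for each gene list with its number of tested genes, with all controls (circles), without scrambled replicate 1 (squares) and with it as the only control (diamonds). Mitochondrially encoded genes spread from -1.27 to -0.10 and ribosomal protein genes from -0.01 to 0.55, while the cortical thymocyte median stays between 0.27 and 0.52.

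Cell-cycle lists had 0 members called, beside 0.174% of all genes tested, a share at which lists of this size mostly hold none. G1/S and DNA replication genes were above 0 in 43 of 55, with a median of 0.10, and 0.13 without scrambled replicate 1. The G2/M median was -0.06 over 38 genes, -0.19 without scrambled replicate 1, 0.22 without scrambled replicate 2 and 0.40 against scrambled replicate 1 alone, so its direction changed with the controls. Interferon-stimulated genes, which respond to foreign RNA, had 0 of 33 called, beside the same 0.174%, and a median of -0.05. RSAD2 among them was at 27.5, 26 and 30.3 CPM with scrambled siRNA and at 16.7, 12.9 and 19.2 CPM with s46. Its log2 fold change was -0.78 ± 0.18 (SE, edgeR adjusted p 0.135). RSAD2 was the 1 member called with the block (edgeR adjusted p 0.0356), beside 0.112% called lower over all genes tested. Of the RNA interference machinery, AGO4 was the 1 of 13 called, beside 0.149% called higher over all genes tested. DROSHA was at -0.72 with all controls and at -0.37 without scrambled replicate 1, its highest control. NKG7 was at 180.3, 179.8 and 155.5 CPM and at 104.8, 146.4 and 106.9 CPM (-0.53 ± 0.15; edgeR adjusted p 0.267). The NK genes GNLY, KLRD1 and NCAM1 were near 0 in all 6 libraries.

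Set against s47 directly, s46 gave 0 calls (0%) in 16072 genes by edgeR, and also 0 by DESeq2 and by limma-voom. The unadjusted edgeR p was under 0.05 for 113 genes (0.703%). The spread in these fits was taken over all 9 libraries, scrambled replicate 1 included, which can widen the SE of a contrast without it. MT-CYB, for example, had an SE of 0.69 between s46 and s47, at means of 128.3 ± 11.3 and 138.7 ± 20.9 CPM (SD). The absence of calls therefore does not show that s46 and s47 act alike. TLX1 differed by 0.11 ± 0.13 (SE) on the log2 scale. Of the 28 genes called for s46, TC2N was at 4.63 CPM on average with s47 against 3.18 with s46, a difference of -0.54 ± 0.24. SHMT1, a serine hydroxymethyltransferase of one-carbon metabolism, was at 54.8, 46.3 and 56.8 CPM with s46 and at 103.6, 76.1 and 87.8 CPM with s47. The s46 libraries were the lowest 3, since scrambled siRNA gave 110.0, 79.9 and 85.1 CPM, but neither difference passed (-0.76 ± 0.16 against s47, edgeR adjusted p 1; -0.80 ± 0.16 against scrambled siRNA, edgeR adjusted p 0.0688) without the block; against scrambled siRNA it passed with the block (edgeR adjusted p 0.0198). EZR and GSTP1 were also lower with s46 than with s47 (-0.43 ± 0.11 and -0.45 ± 0.12), and RGS1 (0.99 ± 0.21) and UNG (0.74 ± 0.22) higher, each with an edgeR adjusted p of 1.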

How the data were processed

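The data are stranded total RNA-seq libraries depleted of ribosomal RNA (labels' protocols). Per gene, the authors deposited raw counts on GRCh38 (submitters' processing notes); the aligner is not given in the sources used here. Sense-strand counts were used, without the 4 lines that name no gene, which left 39.92% to 58.28% of reads in the 6 libraries compared. Of 58096 IDs, 53747 matched GENCODE 29 with version, 3737 without it and 612 not at all.

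All 9 libraries entered 1 edgeR 4.0.16 fit (R 4.3.3; robust quasi-likelihood F test, TMM, filterByExpr minimum count 10, group only; threshold 0.05 after Benjamini-Hochberg over 16072 genes). SEs come from the F statistics. On simulated counts with 15668 genes tested, this comparison found 79 of 100 genes set to a 2-fold change. It found 19 of 100 set to a 1.5-fold change, and made 6 false calls. The changed genes had mean counts above 100, so recovery at lower counts was not measured. Apart from those changes all simulated libraries shared 1 mean profile, without the departure of scrambled replicate 1. Alternatives were RLE and library totals, DESeq2 1.42.0, limma-voom 3.58.1, other filters, a fold minimum of 1.2, unstranded counts, fewer libraries and a replicate block. Deviations from group means correlated across genes between scrambled and s46 libraries of the same number at 0.30, 0.20 and 0.31 for numbers 1, 2 and 3; the numbers, which come from the sample titles, were taken as pairs on that ground.

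The members, the 27 gene lists and the rule for named genes were chosen with earlier results of these data known. The rule takes TLX1, all called genes, up to 6 each way called only without scrambled replicate 1 (log2 CPM of at least 1), the 5 each way (at least 5) that move most without it, 3 each way for s46 against s47, and 2 further genes per list. Some genes taken by this rule are not reported here. GC, 3′ UTRs and words were read from GENCODE 29 transcripts, 1 per gene.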

Additional observations from a re-analysis of the deposited data

How the results depend on the processing

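The count of genes called for s46, 28 as reported, was 14 with library totals in place of TMM, 384 with no filter on low counts, 199 with DESeq2, 5 with a fold minimum of 1.2 and 6 with only the 6 libraries compared. It was 4 to 225 when each library was left out in turn and 4193 with scrambled replicate 1 as the only control. The split of higher and lower genes was 156 and 228 with no filter and 128 and 71 with DESeq2. The count stayed within 1.5 times of 28 with RLE factors (32), a minimum count of 50 (27), limma-voom (25), unstranded counts (26) and without the libraries of number 1 (23). With the replicate block it was 74, and 320 with the block and without scrambled replicate 1. The paired fit kept all 28 calls, and some of its added calls among named genes stand beside them in the report. IGLL1, a B-cell marker, was higher with the block (log2 fold change 1.26, edgeR adjusted p 0.038). Without the block IGLL1 did not pass (1.30, edgeR adjusted p 0.0743). For s46 against s47 the count was 3 with no filter and 6 with the block and without scrambled replicate 1. SCARNA7, at 0.14, was at -0.22 without the libraries of number 1, at -0.24 in the paired fit without scrambled replicate 1, and at -0.25 to 0.40 as each library was left out. HMMR, at -0.03, was at 0.06 with limma-voom and in the paired fit, at 0.94 against scrambled replicate 1 alone, and at -0.33 to 0.35 as each library was left out. Where a cause of these shifts is not given by fewer libraries or genes, the cause was not tested. TLX1 was called under every alternative, with log2 fold changes of -1.38 to -1.11. With 3 libraries a group and this depth, 1.5-fold changes were mostly missed on simulated counts.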
